A study of Mus musculus with 12 samples.

Results

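The 8 genes described here, *Prox1*, *Maf*, *Mafg*, *Mafk*, *Hsf4*, *Sox1*, *Gata3* and *Hopx*, encode nuclear factors of lens fiber differentiation. They were matched by gene symbol in a table of 55487 gene identifiers. The rule itself reads no measured value, but the symbols were listed with earlier results of these data known. A filter on low counts (at least 5 CPM, counts relative to library size, in at least 3 libraries) kept 8984 genes for testing, and all 8 members passed it. Poly-A RNA of whole mouse lenses was sequenced at P7, when the mice were 7 days old. The 12 libraries comprised 3 for each of 4 genotypes, all on the B6J background, and each pooled lenses of both sexes, 4 from males and 4 from females. Wild-type lenses carried no targeted allele. In *Trpm3*-KO lenses, homologous recombination had placed an IRES-*LacZ-neo* cassette in the *Trpm3* gene, so that fusion transcripts could still be made. *Trpm3*-I/M lenses were heterozygous, and *Trpm3*-M/M lenses homozygous, for the p.I65M substitution of this calcium-permeable cation channel, a knock-in made with CRISPR/Cas9. The comparisons address how this cataract-linked substitution and the loss of the channel bear on lens gene expression early in cataract formation.

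Lens fibers form when epithelial cells at the lens equator leave the cell cycle, elongate, fill with crystallins and later destroy their nuclei and organelles. PROX1, c-MAF (the product of *Maf*), SOX1 and HSF4 are nuclear factors required for this program, and c-MAF binds Maf recognition elements in many crystallin promoters. The small Maf proteins MAFG and MAFK lack an activation domain of their own and act as partners of other leucine zipper factors. GATA3 is linked to cell cycle exit in fibers, and HOPX is an atypical homeodomain protein that does not bind DNA by itself.

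Between 56162182 and 82090262 reads were counted on genes per library. Levels are given as CPM scaled with TMM factors, which set the bulk of genes equal between libraries. The 16 crystallin genes took 61.0% to 63.9% of all counts in wild-type libraries. Their share was 59.9% to 62.2% with the *Trpm3*-KO allele, 57.1% to 58.2% with 1 copy of the substitution and 49.4% to 51.3% with 2. *Trpm3* itself measured 251 to 285 CPM in wild-type, 89.9 to 99.7 CPM in *Trpm3*-KO, 370.2 to 413 CPM in *Trpm3*-I/M and 469 to 484 CPM in *Trpm3*-M/M libraries. The lens fiber markers *Bfsp1*, *Mip* and *Crygs* were present in every library, at 4263 CPM or more each. *Xist*, which is made from the inactive X chromosome, was at 0.0722 CPM in *Trpm3*-I/M replicate 3 and at 45.8 to 304.9 CPM in the other libraries, and the Y-linked *Ddx3y* and *Eif2s3y* were highest in that replicate, so its mixed-sex pool is in doubt and values without it are given where they change a call. Replicates are separate libraries of one genotype, and p-values measure the spread between such pools. In bulk RNA, fewer cells of a type and less RNA per cell cannot be told apart.

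Divided by the summed length of their exons, the members spanned a wide range of levels in wild-type lenses. *Hsf4* stood at 159 ± 2.9 CPM per kb (SD, n = 3) and *Maf* at 156 ± 11.6 CPM per kb, and the libraries of these neighbours overlapped. *Prox1* followed at 67.4 ± 0.15 CPM per kb, *Sox1* at 53.2 ± 5.4 CPM per kb and *Hopx* at 35.7 ± 3.3 CPM per kb. *Mafg* stood lower, at 15.6 ± 0.81 CPM per kb, and *Gata3* and *Mafk* were the scarcest members at 2.92 ± 0.35 and 1.25 ± 0.11 CPM per kb. Apart from *Hsf4* and *Maf*, no neighbours in this order overlapped in wild-type libraries. The order of the 8 group means was the same in all 4 genotypes. *Maf* came off the level of *Hsf4* in the mutants, with 117.5 ± 3.3 against 154 ± 1.4 CPM per kb in *Trpm3*-I/M and 93.1 ± 9.6 against 129 ± 16.3 CPM per kb in *Trpm3*-M/M lenses.

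**Figure D1:**
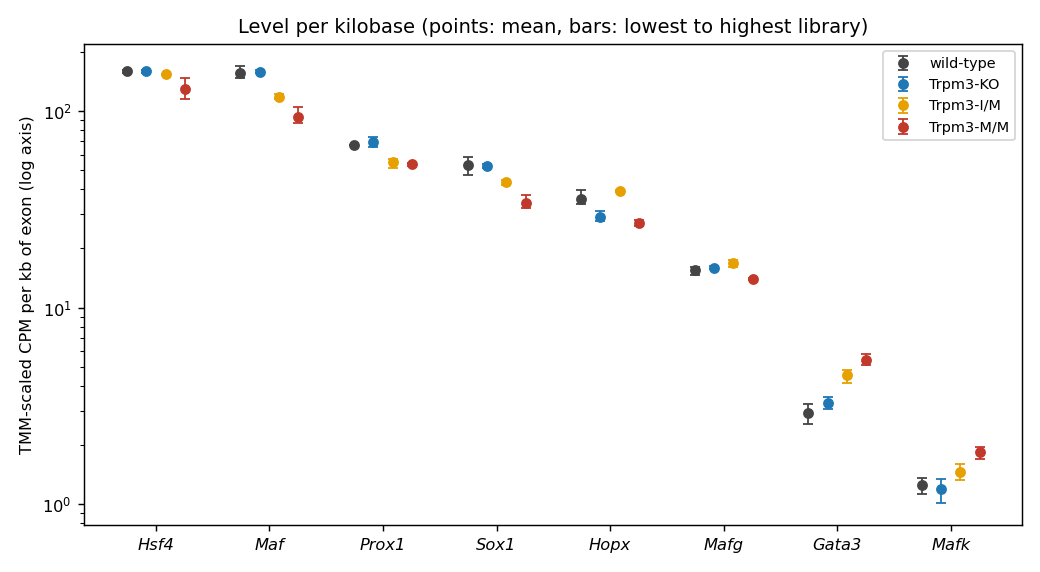
Level per kilobase of exon for the 8 factors, on a log axis in TMM-scaled CPM per kb. Points are means of 3 libraries of a genotype and bars run from the lowest to the highest library. *Hsf4* and *Maf* lie at 159 and 156 CPM per kb in wild-type, and *Mafk* lies lowest at 1.25 CPM per kb.

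Counts of called members differed between the genotypes. With the quasi-likelihood test of edgeR, at a Benjamini-Hochberg adjusted p of at most 0.05 over all 8984 genes, 2 members were higher and 6 were lower in *Trpm3*-M/M than in wild-type lenses, where 31.4% of all tested genes were higher and 31.4% were lower. In *Trpm3*-I/M lenses, 1 member was higher and 3 were lower, against 17.3% of all genes higher and 15.3% lower. In *Trpm3*-KO lenses, 0 members were higher and 1 was lower, against 2.16% and 2.2% of all genes. The count of 0 was also 0 at an unadjusted p under 0.05 and with DESeq2 and edgeR's exact test. When scaled by library size only, 5 members were higher and 1 was lower in *Trpm3*-M/M (82% and 5.51% of all genes), 4 were higher and 1 was lower in *Trpm3*-I/M (51.9% and 3.95%), and 0 were lower in *Trpm3*-KO (1.27%). These comparisons share the same 3 wild-type libraries. Separation of libraries without overlap, as described for members below, was common among all tested genes. Homozygotes did not overlap wild-type for 65.2% of genes and 8 members, heterozygotes for 44.6% and 5, and the knockout for 23.2% and 1. Homozygotes were separate from heterozygotes for 60.5% of genes and 7 members, and from the knockout for 70.9% and 7. *Mafk*, counted as higher in *Trpm3*-M/M, passed the filter on low counts only through libraries with the substitution.

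Between mutants, *Trpm3*-M/M exceeded *Trpm3*-I/M lenses in 2 members and fell below them in 5, against 25.6% and 25.7% of all genes, and *Trpm3*-M/M exceeded *Trpm3*-KO in 2 and fell below it in 5, against 32.3% and 32.4%. By library size only, 3 members were higher and 1 was lower against *Trpm3*-I/M (70.4% and 5.43% of all genes), and 5 were higher and 2 lower against *Trpm3*-KO (78% and 6.89%). No member reached a fold change of 2 with an adjusted p of at most 0.05 in any of the 5 comparisons, a rule met against wild-type by 0.568% of genes in the *Trpm3*-KO, 3.33% in the *Trpm3*-I/M and 8.95% in the *Trpm3*-M/M comparison, by 4.7% in *Trpm3*-M/M against *Trpm3*-I/M and by 9.78% against *Trpm3*-KO. By library size only 2 members, *Gata3* and *Mafk*, met that rule against wild-type, where 15.1% of genes did, and 2 met it against *Trpm3*-KO, where 14.6% did. DESeq2 and edgeR's exact test also gave 0 members by that rule, and so did a fold change of 2 with an unadjusted p under 0.05. The median log2 fold change of the members in *Trpm3*-M/M against wild-type was -0.32 and that of all tested genes was -0.0042, while the median absolute log2 fold change was 0.48 for the members and 0.24 for all genes. In *Trpm3*-KO the median absolute log2 fold change was 0.035 for the members and 0.072 for all genes.

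**Figure D2:**
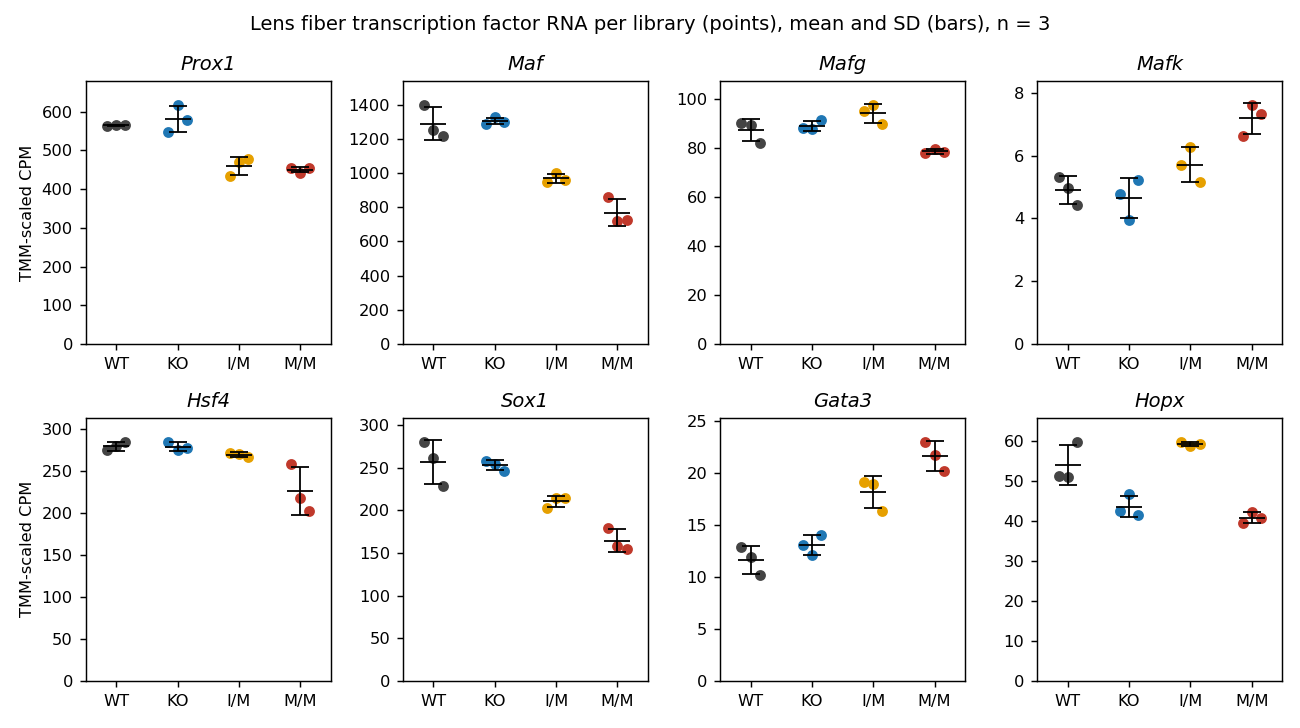
RNA level of each factor in all 12 libraries, in TMM-scaled CPM on a linear axis from 0, with WT for wild-type, KO, I/M and M/M for the *Trpm3* genotypes. Points are libraries and black bars the mean and SD of 3. *Maf* falls from a wild-type mean of 1289 to 768 CPM in M/M, and *Gata3* goes from 11.6 to 21.7 CPM.

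Promoter sequences of the factors, of crystallin genes and of fiber structure and membrane genes were scanned for the Maf half-site, TGCTGA or TCAGCA on the reverse strand, because c-MAF and the small Maf proteins bind it. RefSeq promoters (250 bases before to 50 after the start, GRCm38.p6) were matched for 6 of the 8 members and for 15 of the 16 crystallin genes. The half-site stood in 10 of 15 crystallin promoters (66.7%), in 7 of 18 promoters of fiber structure and membrane genes (38.9%) and in 3 of 8 promoters of members (37.5%), against 19.5% of all 32851 promoters. A match is a description of letters and not a bound site. The members' matches are shown first, because *Gata3* and *Mafk* were the rising members and *Hopx* the one called in the knockout, followed by crystallin and fiber genes that fell in *Trpm3*-M/M and by *Cryaa*, the most abundant crystallin, chosen after its values were seen. Capitals mark the half-site in 46 bases read 5′ to 3′ on the gene's strand.
*Gata3*, first base of the half-site at -90, chr2:9878665-9878710, reverse strand: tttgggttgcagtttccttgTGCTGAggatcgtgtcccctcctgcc
*Mafk*, -226, chr5:139791290-139791335, forward strand: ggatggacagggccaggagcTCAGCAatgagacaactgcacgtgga
*Hopx*, -30, chr5:77115128-77115173, reverse strand: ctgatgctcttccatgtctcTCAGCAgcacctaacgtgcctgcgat
*Cryaa*, -108, chr17:31677803-31677848, forward strand: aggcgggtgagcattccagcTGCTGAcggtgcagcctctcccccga
*Cryga*, -215, chr1:65103553-65103598, reverse strand: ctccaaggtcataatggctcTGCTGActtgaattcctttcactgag
*Crygc*, -229, chr1:65073736-65073781, reverse strand: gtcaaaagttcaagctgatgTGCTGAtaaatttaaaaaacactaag
*Bfsp1*, -187, chr2:143863335-143863380, reverse strand: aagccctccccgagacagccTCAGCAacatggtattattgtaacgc
*Lctl*, -73, chr9:64117054-64117099, forward strand: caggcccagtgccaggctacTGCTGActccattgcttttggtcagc
The half-site of *Crygc* runs into the Gata letters TGATAA, which it overlaps. The promoters of *Prox1*, *Mafg* and *Sox1* did not hold the half-site letters. Of the letters for the other factors, searched on either strand, the heat shock letters TTCNNGAA or GAANNTTC stood in 6.67% of crystallin promoters against 15.1% of all promoters, and the Gata letters AGATAA or TGATAA in 13.3% against 18.6%. The Sox letters AACAAT stood in 20% of crystallin promoters against 10.7% of all, which is 3 of 15.

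*Prox1* (chr1:190118035-190170714, reverse strand of GRCm38) encodes a homeodomain protein needed for fiber elongation. Wild-type libraries held 564, 566 and 566 CPM and *Trpm3*-KO libraries 548, 617 and 578 CPM. *Trpm3*-I/M libraries held 433, 469 and 478 CPM and *Trpm3*-M/M libraries 453, 443 and 456 CPM. All 6 libraries with the substitution lay below all 6 without it, and the heterozygous and homozygous libraries overlapped. *Prox1* fell in *Trpm3*-I/M with a log2 fold change of -0.30 ± 0.05 (SE; adjusted p = 0.000604, edgeR) and in *Trpm3*-M/M with -0.33 ± 0.05 (adjusted p = 8.63e-05, edgeR), but by library size only the former was -0.10 and not called (adjusted p = 0.196) and the latter reversed to 0.18. Between *Trpm3*-M/M and *Trpm3*-I/M, the log2 difference was -0.03, with a 95% interval from -0.14 to 0.08 (adjusted p = 0.655, edgeR), and 0.28 by library size only. In *Trpm3*-KO it was 0.04, with an interval from -0.07 to 0.15.

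Antisense to *Prox1* and starting within it lies *Prox1os* (chr1:190170296-190217276), a long RNA that shares 133 bases with the exons of *Prox1*, 1.59% of their length. *Prox1os* measured 122, 129 and 130.3 CPM in wild-type, 117, 116 and 113 CPM in *Trpm3*-KO, 84.1, 81.0 and 81.5 CPM in *Trpm3*-I/M and 53.8, 52.8 and 55.9 CPM in *Trpm3*-M/M libraries. The levels of the 4 genotypes did not overlap. *Prox1os* fell with a log2 fold change of -0.63 ± 0.04 in *Trpm3*-I/M (adjusted p = 1.50e-07, edgeR) and -1.23 ± 0.04 in *Trpm3*-M/M (adjusted p = 5.70e-11, edgeR), and stayed lower by library size only, at -0.43 and -0.72. In *Trpm3*-KO its log2 fold change was -0.14 ± 0.04 (adjusted p = 0.0885, edgeR). Taken within each library, where scaling has no part, the log2 ratio of *Prox1os* to *Prox1* went from -2.16 ± 0.05 (SD, n = 3) in wild-type to -3.06 ± 0.03 in *Trpm3*-M/M, and the libraries did not overlap. The counting was not stated to use strand, so reads from the shared bases cannot be assigned to one of the genes.

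*Maf* (chr8:115682942-115707794, reverse strand) encodes c-MAF, the large Maf factor of primary fiber elongation and crystallin transcription. Its wild-type libraries held 1398, 1252 and 1219 CPM and its *Trpm3*-KO libraries 1288, 1325 and 1297 CPM. *Trpm3*-I/M libraries held 947, 999 and 959 CPM, and *Trpm3*-M/M libraries held 858, 718 and 726 CPM. The *Trpm3*-I/M libraries lay below wild-type and *Trpm3*-KO without overlap, and the *Trpm3*-M/M libraries lay below *Trpm3*-I/M. *Maf* fell in *Trpm3*-I/M with a log2 fold change of -0.41 ± 0.07 (adjusted p = 0.000542, edgeR) and in *Trpm3*-M/M with -0.75 ± 0.07 (adjusted p = 7.41e-07, edgeR), to 0.60 of the wild-type level. Among the 8 members this was the lowest log2 fold change in *Trpm3*-M/M, also by library size only. *Maf* stayed lower under every scaling tried, with -0.21 and -0.24 by library size only. *Trpm3*-M/M also lay below *Trpm3*-I/M by -0.34 ± 0.07 (adjusted p = 0.00134, edgeR), a difference of -0.03 by library size only.

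The small Maf genes moved in opposite directions in homozygotes. *Mafg* (chr11:120625117-120633600, reverse strand) held 90.5, 89.5 and 82.2 CPM in wild-type, 88.1, 88.0 and 91.6 CPM in *Trpm3*-KO, 95.3, 97.6 and 90.0 CPM in *Trpm3*-I/M and 78.0, 79.8 and 78.4 CPM in *Trpm3*-M/M libraries. The *Trpm3*-M/M libraries were lowest, below all others. *Mafg* fell in *Trpm3*-M/M with a log2 fold change of -0.15 ± 0.05 (adjusted p = 0.0142, edgeR), but rose by 0.36 when scaled by library size only. Its adjusted p was 0.0520 without wild-type replicate 1, 0.0714 without *Trpm3*-M/M replicate 1, 0.0509 without replicate 2 and 0.0659 without replicate 3. In *Trpm3*-I/M its log2 fold change was 0.11 (adjusted p = 0.0952, edgeR), called at 0.31 by library size only (adjusted p = 0.000602), and in *Trpm3*-KO 0.03, with an interval from -0.07 to 0.13.

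*Mafk* (chr5:139791513-139802653, forward strand) was near the filter, with 219 to 702 estimated counts per library. Wild-type libraries held 5.31, 4.96 and 4.42 CPM, *Trpm3*-KO 4.77, 3.96 and 5.22 CPM, *Trpm3*-I/M 5.69, 6.28 and 5.16 CPM, and *Trpm3*-M/M 6.64, 7.61 and 7.31 CPM. The *Trpm3*-M/M libraries were above all others, while *Trpm3*-I/M overlapped wild-type. *Mafk* rose in *Trpm3*-M/M with a log2 fold change of 0.55 ± 0.11 (adjusted p = 0.000663, edgeR), and 1.06 by library size only. Against *Trpm3*-I/M it was higher by 0.33 ± 0.11 (adjusted p = 0.0184, edgeR), a call lost without *Trpm3*-I/M replicate 3 (0.26, adjusted p = 0.0791) and without *Trpm3*-M/M replicate 2 (0.31, adjusted p = 0.0558). In *Trpm3*-I/M against wild-type it was 0.22 (adjusted p = 0.151, edgeR), and called at 0.42 by library size only (adjusted p = 0.00928). Within libraries, the log2 ratio of *Mafk* to *Mafg* went from -4.16 ± 0.06 (SD, n = 3) in wild-type to -3.46 ± 0.09 in *Trpm3*-M/M without overlap, so *Mafg* RNA remained far above *Mafk* RNA in counts.

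Of 6 genes for partners of small Maf proteins, 4 were tested, and 2 of them rose in *Trpm3*-M/M (4 by library size only). *Nfe2l1*, which encodes a cap-n-collar activator of proteasome genes, rose by 0.48 on the log2 scale (from 129 to 180.2 CPM), and *Bach1*, which encodes a heme-regulated repressor, rose by 0.48 (from 6.44 to 9.0 CPM). Of 11 genes taken as targets of such dimers, most of them antioxidant genes, 9 were tested, with 5 higher and 3 lower in *Trpm3*-M/M (7 and 1 by library size only). *Gclm*, a subunit of the glutathione synthesis enzyme, rose by 1.06 and *Srxn1*, the sulfiredoxin gene, by 0.99, while *Hmox1*, the inducible heme oxygenase, fell by 1.02 on the log2 scale. *Hspb1*, a small heat shock protein gene, rose by 0.73 in *Trpm3*-M/M, by 0.88 in *Trpm3*-I/M and by 0.59 in *Trpm3*-KO lenses. The list thus did not move one way. Counts of genes in lists, here and below, stand beside the shares of all tested genes in *Trpm3*-M/M. Under TMM scaling 31.4% were higher and 31.4% lower, and by library size only 82% were higher and 5.51% lower. The shares for *Trpm3*-I/M are given above.

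*Hsf4* (chr8:105269801-105275845, forward strand) encodes the heat shock factor of postnatal lens fibers, mutated in inherited cataract. Wild-type libraries held 274, 279 and 285 CPM, *Trpm3*-KO 285, 274 and 277 CPM, *Trpm3*-I/M 271, 270.5 and 267 CPM, and *Trpm3*-M/M 258, 218 and 202 CPM. The *Trpm3*-M/M libraries lay lowest and were the most spread. *Hsf4* fell in *Trpm3*-M/M with a log2 fold change of -0.31 ± 0.07 (adjusted p = 0.00157, edgeR), a direction that reversed to 0.20 by library size only. Against *Trpm3*-I/M it was lower by -0.25 ± 0.07 (adjusted p = 0.00708, edgeR) and 0.05 by library size only. In *Trpm3*-I/M against wild-type the log2 fold change was -0.05, with an interval from -0.20 to 0.10 (0.15 and not called by library size only), and in *Trpm3*-KO it was -0.0033, with an interval from -0.15 to 0.14.

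*Sox1* (chr8:12395295-12400126, forward strand, a gene of 1 exon) encodes a high mobility group box factor that drives gamma crystallin genes in fibers. Wild-type libraries held 281, 261 and 229 CPM, *Trpm3*-KO 258, 254 and 247 CPM, *Trpm3*-I/M 203, 214 and 215 CPM, and *Trpm3*-M/M 179.7, 159 and 155 CPM. *Trpm3*-I/M lay below wild-type, and *Trpm3*-M/M below *Trpm3*-I/M, without overlap. *Sox1* fell with a log2 fold change of -0.29 ± 0.07 in *Trpm3*-I/M (adjusted p = 0.00778, edgeR) and -0.64 ± 0.07 in *Trpm3*-M/M (adjusted p = 4.01e-06, edgeR). By library size only the values were -0.09 (adjusted p = 0.305) and -0.14 (adjusted p = 0.0826), below wild-type in both but no longer called. *Sox1* moved most like *Maf*: the root mean square difference between their log2 CPM, each relative to its wild-type mean, was 0.095 over the 12 libraries, the smallest of the 28 pairs of members.

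The locus of *Sox1* lies inside *Sox1ot* (chr8:12385771-12436768), a long RNA on the same strand that shares 0 exon bases with it. *Sox1ot* measured 185, 197 and 153 CPM in wild-type, 166, 164 and 176 CPM in *Trpm3*-KO, 104, 109 and 116 CPM in *Trpm3*-I/M and 55.2, 56.8 and 54.4 CPM in *Trpm3*-M/M libraries. Wild-type and *Trpm3*-KO overlapped, and the substitution libraries lay below them in the order heterozygous, then homozygous. *Sox1ot* fell with a log2 fold change of -0.70 ± 0.08 in *Trpm3*-I/M (adjusted p = 1.31e-05, edgeR) and -1.68 ± 0.08 in *Trpm3*-M/M (adjusted p = 8.96e-10, edgeR), and with -0.49 and -1.17 by library size only. Within a library, the log2 ratio of *Sox1ot* to *Sox1* was -0.53 ± 0.11 (SD, n = 3) for wild-type and -0.59 ± 0.08 for *Trpm3*-KO, then -0.94 ± 0.05 for *Trpm3*-I/M, and lowest at -1.56 ± 0.12 for *Trpm3*-M/M, and the ratios of both substitution genotypes lay below wild-type. The other annotated genes that overlap a member (*Hopxos*, *Gm15655*, *Sirt7*, *Tmem184a*, *Gm13256*, *4930412O13Rik*, *9230102O04Rik*, *Gm28172* and *Gm25239*) had mean levels of 3.81 CPM or less in every genotype.

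**Figure D3:**
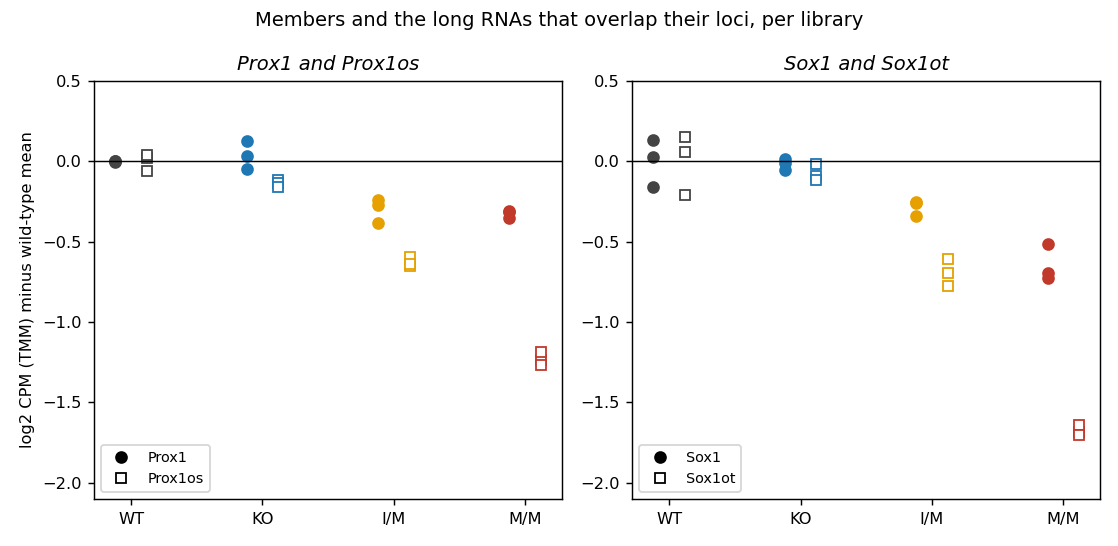
Level of *Prox1* and *Prox1os* (left) and of *Sox1* and *Sox1ot* (right) per library, as log2 CPM with TMM scaling minus the wild-type mean. Filled circles are the factor genes and open squares the overlapping long RNAs. In M/M, *Prox1os* lies near -1.23 and *Sox1ot* near -1.68, both below their factor gene, while *Prox1* (near -0.33 here) is above wild-type by 0.18 if scaled by library size only.

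*Gata3* (chr2:9857078-9890034, reverse strand) encodes a zinc finger factor. The half-site printed above comes from a RefSeq promoter within these coordinates, not at their upstream end at 9890034. The printed bases also lie within the antisense gene *Gm13256* (chr2:9877256-9878869). Wild-type libraries held 12.9, 11.9 and 10.1 CPM, *Trpm3*-KO 13.0, 12.1 and 14 CPM, *Trpm3*-I/M 19.1, 19.0 and 16.4 CPM, and *Trpm3*-M/M 23.0, 21.7 and 20.2 CPM. Both substitution genotypes lay above wild-type and *Trpm3*-KO without overlap. *Gata3* rose with a log2 fold change of 0.64 ± 0.09 in *Trpm3*-I/M (adjusted p = 0.000116, edgeR) and 0.90 ± 0.09 in *Trpm3*-M/M (adjusted p = 1.37e-06, edgeR), a fold of 1.86, and by 0.84 and 1.40 by library size only. The difference between these genotypes was 0.25 ± 0.08 (adjusted p = 0.0232, edgeR) and was not called without *Trpm3*-I/M replicate 3 (0.18, adjusted p = 0.103) or without *Trpm3*-M/M replicate 1 (0.23, adjusted p = 0.0604). In *Trpm3*-KO the log2 fold change was 0.17, with an interval from -0.03 to 0.37 (adjusted p = 0.379, edgeR).

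*Hopx* (chr5:77086988-77115121, reverse strand) was the 1 member called in the knockout. Wild-type libraries held 51.3, 51.1 and 59.9 CPM, *Trpm3*-KO 42.6, 46.8 and 41.6 CPM, *Trpm3*-I/M 59.8, 58.8 and 59.3 CPM, and *Trpm3*-M/M 39.5, 42.2 and 40.8 CPM. *Trpm3*-KO and *Trpm3*-M/M overlapped each other below wild-type, and *Trpm3*-I/M lay within the upper part of the wild-type range. *Hopx* fell in *Trpm3*-KO with a log2 fold change of -0.31 ± 0.06 (adjusted p = 0.0130, edgeR), a call lost without *Trpm3*-KO replicate 1 (-0.29, adjusted p = 0.0623) or replicate 3 (-0.28, adjusted p = 0.0753) and by library size only (-0.26, adjusted p = 0.0836). *Hopx* fell in *Trpm3*-M/M with -0.41 ± 0.06 (adjusted p = 9.14e-05, edgeR), a direction that reversed to 0.10 by library size only. Without wild-type replicate 3, the rise in *Trpm3*-I/M was called (0.21, adjusted p = 0.0127), against 0.13 with all libraries (adjusted p = 0.134, edgeR), and it was also called by library size only (0.33, adjusted p = 0.00295). *Trpm3*-M/M lay below *Trpm3*-I/M by -0.54 ± 0.06 (adjusted p = 1.41e-05, edgeR) and -0.23 by library size only, and differed from *Trpm3*-KO by -0.10, with an interval from -0.23 to 0.04, and by 0.36 by library size only.

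**Figure D4:**
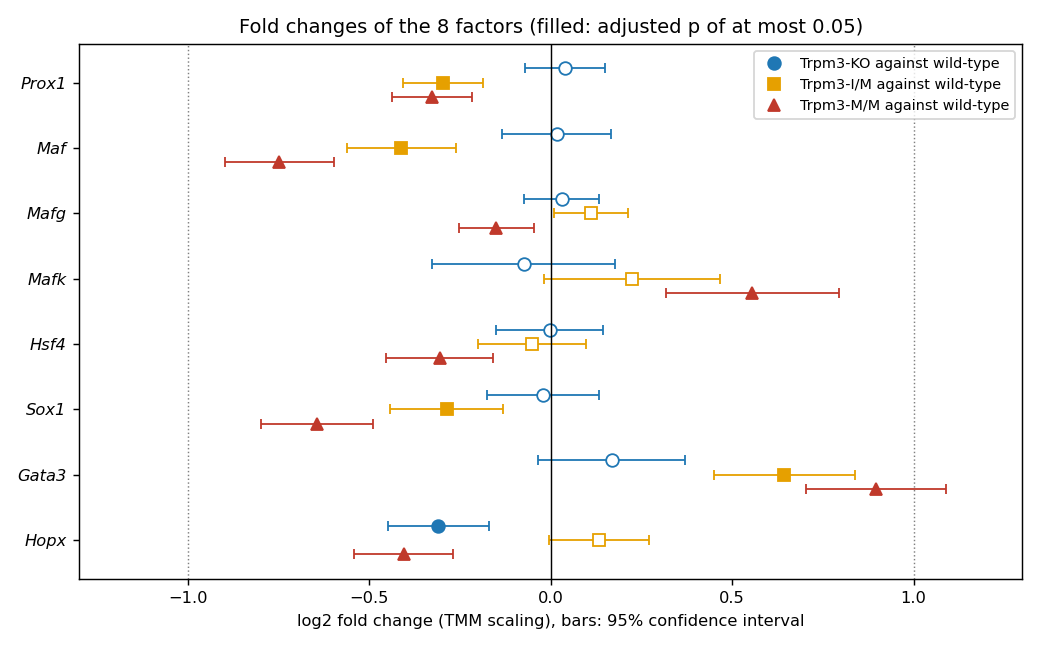
Log2 fold changes of the 8 factors against wild-type with 95% confidence intervals, under TMM scaling. Filled symbols passed an adjusted p of at most 0.05, and dotted lines mark a fold change of 2. All 8 are filled in M/M, 4 in I/M and 1 in KO, and in M/M the values of *Prox1*, *Mafg*, *Hsf4* and *Hopx* change sign if libraries are scaled by size only.

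Homozygotes were also set against the knockout, which asks whether the substitution and the interrupted channel gene gave the same levels. In homozygotes *Maf* lay below *Trpm3*-KO by a log2 difference of -0.76 (adjusted p = 5.80e-07, edgeR) and *Sox1* by -0.62 (adjusted p = 5.38e-06, edgeR), while *Gata3* was higher by 0.73 (adjusted p = 8.10e-06, edgeR) and *Mafk* by 0.63 (adjusted p = 0.000219, edgeR). *Prox1*, *Hsf4* and *Mafg* were lower by -0.37, -0.30 and -0.18, and these 3 turned to 0.09, 0.15 and 0.28 by library size only. Under TMM scaling, *Hopx* was the 1 member that did not pass the test between these genotypes. By library size only, *Hopx* was higher in homozygotes than in *Trpm3*-KO, as given above.

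The direction of several members depended on the scaling, and the crystallin share of the counts differed between genotypes, as given above. When only library size was used, all tested genes had a median log2 fold change against wild-type of 0.50 for *Trpm3*-M/M. The same median was 0.20 for *Trpm3*-I/M, 0.05 for *Trpm3*-KO, and 0.31 in *Trpm3*-M/M against *Trpm3*-I/M and 0.46 against *Trpm3*-KO. Relative to that shift, the 6 members that fell under TMM scaling lay below the median gene, from 0.36 for *Mafg* to -0.24 for *Maf*, and *Gata3* and *Mafk* lay above it. TMM scaling takes out about the same shift, so these positions repeat the TMM result and do not check the scaling. By library size only, *Gata3* and *Mafk* passed a fold change of 2. TMM factors computed without the crystallin genes also set the bulk of genes equal. They gave the same 2 higher and 6 lower members in *Trpm3*-M/M, with -0.75 for *Maf* and 0.89 for *Gata3*.

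Ratios of 2 members within a library do not depend on the scale. In *Trpm3*-M/M against wild-type, the log2 ratio of *Maf* to *Prox1* changed by -0.42 and that of *Sox1* to *Prox1* by -0.32, and in both the 3 libraries lay below the wild-type libraries. The ratio of *Gata3* to *Prox1* changed by 1.23 and that of *Mafk* to *Prox1* by 0.88, without overlap. The log2 ratio of *Hsf4* to *Prox1* was -1.004 ± 0.180 (SD, n = 3) in *Trpm3*-M/M and -1.017 ± 0.024 in wild-type, with overlapping libraries. With 3 libraries against 3, the exact permutation test cannot go below p = 0.1, which each of these 4 non-overlapping ratios reached (two-sided). Against the summed counts of 16 fiber structure and membrane genes, the log2 ratio in *Trpm3*-M/M rose by 0.54 for *Prox1*, 0.56 for *Hsf4*, 0.72 for *Mafg*, 1.43 for *Mafk*, 1.77 for *Gata3*, 0.23 for *Sox1* and 0.47 for *Hopx*, without overlap, while *Maf* overlapped wild-type at 0.12. The summed fiber genes themselves went from 36319 to 38984 CPM in wild-type to 19194 to 22342 CPM in *Trpm3*-M/M, while the median gene had a log2 fold change of -0.0042, so a rise of these ratios is not particular to the members.

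**Figure D5:**
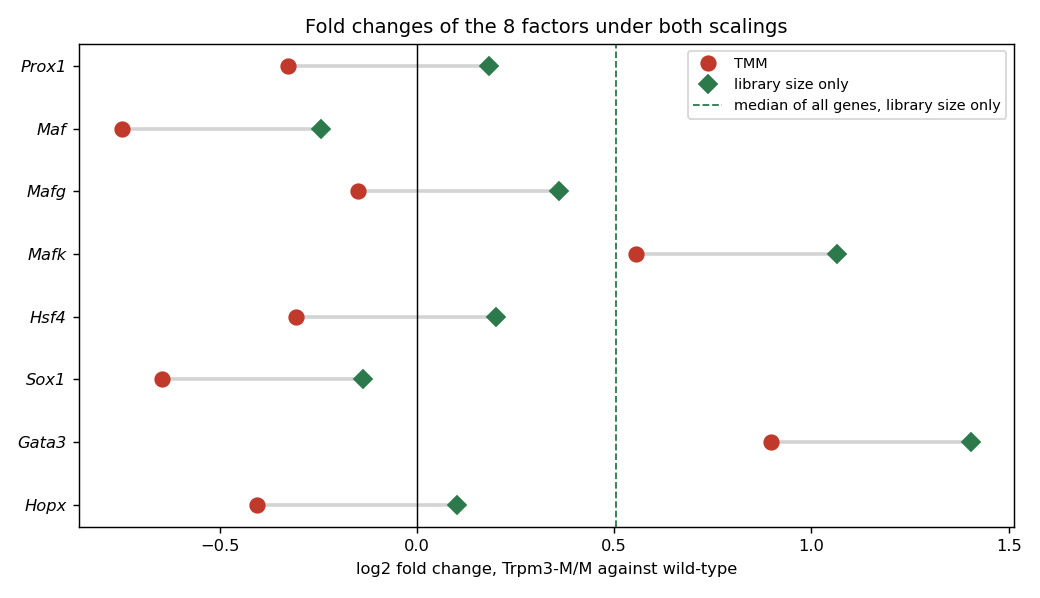
Log2 fold change of each factor in *Trpm3*-M/M against wild-type under TMM scaling (circles) and library size only (diamonds). The dashed line is the median of all genes by library size only, at 0.50. *Prox1*, *Mafg*, *Hsf4* and *Hopx* cross 0 between the scalings, *Maf* and *Sox1* stay below 0, and *Mafk* and *Gata3* stay above it.

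Genes with the pattern most like each member over the 12 libraries were found by the root mean square difference of log2 CPM relative to the wild-type mean. *Atp11a*, *Zfp536* and *Fgfr1op* lay nearest to *Prox1* (0.054 for each), *Lrrc75b*, *Bcl7a* and *Bcl2* to *Maf* (0.063 to 0.081), and *Ranbp9*, *Dennd6a* and *Mon1b* to *Sox1* (0.050 to 0.078). *Gfod2*, *Sh3glb2* and *Faf2* lay nearest to *Mafg*, *Arhgap26*, *Foxj2* and *Bcl9l* to *Mafk*, and *Nf2*, *Akt1* and *Vipas39* to *Hsf4*. *Mmgt2*, *Elf4* and *Zbtb4* were nearest to *Gata3* (0.106 to 0.112), and *Psmb4*, *Nap1l4* and *Dnajc6* to *Hopx* (0.112 to 0.118). Over all tested genes the median difference ran from 0.20 for *Mafg* to 0.60 for *Gata3*. The pair of members furthest apart was *Maf* and *Gata3*, at 0.99.

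Crystallin genes, textbook targets of c-MAF, SOX1, PROX1 and HSF4, were lower in both substitution genotypes. Of 16 tested, 15 fell and 0 rose in *Trpm3*-M/M (14 and 1 by library size only), with a median log2 fold change of -0.94, and 13 fell and 0 rose in *Trpm3*-I/M (4 and 1 by library size only, and 9 and 0 without *Trpm3*-I/M replicate 3), with a median of -0.31. In *Trpm3*-KO, 1 rose and 1 fell. *Crygb* fell by 1.37, *Crygf* by 1.23, *Cryga* by 1.18 and *Crygc* by 1.1 on the log2 scale in *Trpm3*-M/M, and all 4 also fell by library size only. Reads of these near-identical gamma crystallins could be split between copies, so single values are uncertain. Promoters were matched for 15 of the 16 crystallin genes, and no half-site match was found for *Crygb* or *Crygf*. Whether the fall went with the half-site was not tested. Of 16 fiber structure and membrane genes, 13 fell and 0 rose in *Trpm3*-M/M (10 and 3 by library size only) and 9 fell and 0 rose in *Trpm3*-I/M (4 and 4), among them *Bfsp1*, the beaded filament gene, which fell by 1.32 on the log2 scale in *Trpm3*-M/M, and *Lctl*, which fell by 1.1.

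Relatives of the factors were mostly too low to test, with 5 of 16 passing the filter. *Sox2*, the B1 group relative of *Sox1*, fell from 20.3 to 4.44 CPM in *Trpm3*-M/M (log2 fold change -2.19) and to 9.49 CPM in *Trpm3*-I/M (-1.09). *Mafa*, a large Maf gene, rose by 1.01 on the log2 scale in *Trpm3*-M/M and kept this direction by library size only. *Hsf1* and *Hsf2*, the widely expressed heat shock factors, had log2 fold changes of 0.11 and 0.17 in *Trpm3*-M/M and were not called.

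Genes around the switch from epithelium to fiber moved in both directions in *Trpm3*-M/M. Of 9 tested cell cycle genes, 6 rose and 3 fell (6 and 0 by library size only): *Cdkn1a*, the p21 inhibitor, rose from 0.128 to 11.8 CPM, *Ccnd2* and *E2f1* rose by 0.87 and 0.59, and *Cdkn1b*, the p27 inhibitor, fell by 0.59 on the log2 scale (-0.08 and not called by library size only). *Cdkn1a* passed the filter on low counts only through the *Trpm3*-M/M libraries, so its place among the rising genes is not independent of the filter. Of 3 tested fibroblast growth factor receptors, *Fgfr1* rose by 0.62 while *Fgfr2* fell by 0.64 and *Fgfr3* fell by 0.55 (-0.04 and not called by library size only). Of 7 lens epithelium factors, 1 rose and 4 fell (3 and 2 by library size only), with *Foxe3* lowest at -2.24, *Meis2* at -1.14, *Meis1* at -0.62 and *Pax6* at -0.62 (*Meis1* and *Pax6* at -0.11 and not called by library size only).

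Several members are also expressed outside the lens: *Prox1* in lymphatic endothelium, *Maf* in macrophages, and *Gata3* in T cells. Markers of other cell types moved with the same genotypes as the members, and their part in the members' values was not tested. Of 10 vascular endothelium markers, 8 were tested and 7 rose in *Trpm3*-M/M, with a summed level of 77.9 to 88.7 CPM against 14.1 to 16.8 CPM in wild-type, 14.2 to 15.5 CPM in *Trpm3*-KO and 27.2 to 36.6 CPM in *Trpm3*-I/M. *Flt1*, *Cldn5*, *Tie1* and *Eng* passed the filter only through the *Trpm3*-M/M libraries, so the count of rising markers is not independent of the filter. The summed levels cover tested and untested markers. Of 7 tested pericyte and fibroblast markers, 6 rose and 1 fell, and the whole list summed to 311 to 449 against 159 to 168 CPM in wild-type, with *Acta2* the most abundant. Among the tested ones, *Col1a1* and *Cspg4* also passed the filter only through the *Trpm3*-M/M libraries. The summed lymphatic endothelium markers, of which *Pdpn* was the only one tested, went from 20.1 to 21.8 CPM in wild-type to 37.5 to 41.0 CPM in *Trpm3*-M/M. No macrophage marker of 10 passed the filter, and their sum was 10.2 to 20.6 CPM in *Trpm3*-M/M, 1.07 to 1.13 CPM in *Trpm3*-I/M and 0.480 to 0.631 CPM in wild-type.

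Beside the rise of *Gata3*, the 7 T cell markers summed to 0.668 to 0.714 CPM in wild-type, 1.57 to 2.05 CPM in *Trpm3*-I/M and 4.31 to 4.99 CPM in *Trpm3*-M/M, and most of that sum was *Cd3g*, at a mean of 3.77 CPM. *Cd3e* was at 0 counts in all 12 libraries, *Cd3d* at 5 counts or fewer and *Trac* at 9 or fewer, in libraries of 56162182 reads or more. Cornea markers summed to 3.66 to 6.72 CPM in *Trpm3*-M/M and 0.236 to 0.436 CPM in wild-type, and photoreceptor markers to 1.58 to 4.6 and 0.693 to 0.912 CPM. Other neural retina markers summed to 3.9 to 5.83 CPM in *Trpm3*-M/M and 3.74 to 4.37 CPM in wild-type, red blood cell markers to 12.4 to 15 and 1.23 to 12 CPM, pigmented cell markers to 2.95 to 3.51 and 5.95 to 6.55 CPM, and striated muscle markers to 4.86 to 5.72 and 5.96 to 7.04 CPM.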

How the data were processed

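Lens poly-A RNA was sequenced in 12 libraries, 3 for each genotype, and samples were grouped by their titles. Alignment and counting had been done by the authors in DRAGEN (build mm10 in the submitters' processing notes), who deposited estimated counts per gene, neither normalized nor pooled. Of the values of genes with a count, 80.1% were whole. The tests had been planned for whole counts, so the estimated counts were rounded. Repeated entries of 168 identifiers held equal values and were used once. A second deposited table holds the authors' own comparisons, with their fold changes and p-values, and was not used. Genes with a CPM of at least 5 in at least 3 libraries were tested with edgeR 4.0.16 (R 4.3.3): TMM factors, 1 quasi-likelihood fit of all 12 libraries with genotype as the only factor, and Benjamini-Hochberg adjustment within each comparison. Log2 CPM took a prior count of 2. DESeq2 1.42.0 was an alternative. The procedure was tested on simulated data. Coordinates, exon lengths and overlaps came from a GENCODE annotation of GRCm38, matched by identifier. Python 3.11.15, scipy 1.17.1 and matplotlib 3.10.9 were used besides.

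The members and gene lists were chosen with earlier results of these data known. Named genes were the members, genes overlapping a member, the 3 genes most like each member, at most 4 genes of each list with the largest absolute log2 fold change among those called in *Trpm3*-M/M, the most abundant gene of a cell type list, and *Trpm3*, *Xist* and Y-linked genes as checks. Other genes named were chosen after their values were seen. Totals per library ran from 56162182 to 82090262 counts, and no 2 replicates agreed within sampling noise.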

Additional observations from a re-analysis of the deposited data

Results flagged for a closer look

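Under TMM scaling, the mean levels of *Mafg* and *Hopx* were above wild-type in *Trpm3*-I/M, with overlapping libraries, and below it in *Trpm3*-M/M, while by library size only both genes were above wild-type in both genotypes. The difference between *Trpm3*-M/M and *Trpm3*-I/M passed edgeR's quasi-likelihood test in both. For *Mafg* the log2 difference was -0.26 (adjusted p = 0.000505), with *Trpm3*-I/M at 0.11 (not called) and *Trpm3*-M/M at -0.15 against wild-type, and the difference was 0.05 by library size only. For *Hopx* it was -0.54 (adjusted p = 1.41e-05), with *Trpm3*-I/M at 0.13 (not called) and *Trpm3*-M/M at -0.41, and it was -0.23 by library size only. Without *Trpm3*-I/M replicate 3, the differences were -0.29 and -0.54.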

How the results depend on the processing

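The scaling decided most changes. By library size only, log2 fold changes reversed in *Trpm3*-M/M against wild-type for *Prox1* (0.18), *Mafg* (0.36), *Hsf4* (0.20), *Hopx* (0.10) and *Actn3*, a muscle marker (0.24), against *Trpm3*-I/M for *Prox1* (0.28), *Mafg* (0.048) and *Hsf4* (0.052), and against *Trpm3*-KO for *Prox1* (0.093), *Mafg* (0.28), *Hsf4* (0.15) and *Hopx* (0.36). The members called were then 0 lower in *Trpm3*-KO, 4 higher and 1 lower in *Trpm3*-I/M, 5 higher and 1 lower in *Trpm3*-M/M, 1 lower in *Trpm3*-M/M against *Trpm3*-I/M, and 5 higher and 2 lower against *Trpm3*-KO, with 2 past both thresholds in *Trpm3*-M/M against wild-type and against *Trpm3*-KO, where 15.1% and 14.6% of all genes were. Upper-quartile scaling, TMM with crystallin genes left out, other filters on low counts, DESeq2, the exact test and fits of only the compared genotypes reversed no called fold change of a member, although *Mafk* did not pass the filter in the fit of *Trpm3*-KO and wild-type alone. Leaving out each library in turn gave 0 to 1 members lower in *Trpm3*-KO (0 without *Trpm3*-KO replicate 1 or 3), 1 to 2 higher in *Trpm3*-I/M (2 without wild-type replicate 3), 5 to 6 lower in *Trpm3*-M/M, and 0 to 2 higher in *Trpm3*-M/M against *Trpm3*-I/M (0 without *Trpm3*-I/M replicate 3, 1 without *Trpm3*-M/M replicate 1 or 2). In the same order, the shares of all genes in these fits were 1.27% to 2.63%, 13.9% to 16.9%, 27.9% to 31.4% and 21.1% to 26.4%. Of 18 pairs of same-numbered libraries, 2 correlated over 0.1 (range -0.26 to 0.15), so the numbers were not taken to pair samples, and the replicate block left 2 higher and 6 lower members in *Trpm3*-M/M, as without it, and no member count changed. Members at low levels, *Mafk* above all, had the widest intervals.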
